A study of Mus musculus with 63 samples.

Results

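Heat shock proteins and chaperones were read from the single-cell expression table of 46 light-sensitive (LS) and 17 non-light-sensitive (NS) cells by the symbols of 10 genes out of 20183 listed. The 4 inducible genes were Hspa1a, Hspa1b, Dnajb1 and Hspb1, the 4 constitutive genes of the cytosol were Hspa8, Hsp90ab1, Hsp90aa1 and Dnaja1, and the 2 genes of the endoplasmic reticulum (ER) were Hspa5 and Hsp90b1. All 10 were found. The classes follow textbook roles, and Hsp90aa1 and Dnaja1 have both a basal and an inducible level. Every cell was a single soma from the brain of wild type C57BL/6 mice of 70 days, which the study took from male animals, in layer 2/3 of the visual cortex, area V1. Both groups had been loaded with the calcium dye Cal-520 AM, shown light gratings under isoflurane, and sucked into a patch pipette. Both were then amplified by Smart-seq2, which copies full-length mRNA of a single cell and multiplies it by PCR. LS cells answered most presentations of light with a calcium transient and NS cells hardly any. The question put to these genes was whether their levels carry a sign of cell stress from the collection of the soma, and how they stand against Fos, an immediate-early gene that both neuronal activity and injury switch on.

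Chaperones bind unfolded or newly made proteins and help them fold. Heat, oxidative damage and other insults release heat shock factor 1, which binds repeated GAA units in promoters of the inducible genes, whereas the constitutive members serve daily folding and are abundant in neurons. A separate response answers unfolded protein in the ER and acts through other promoter elements on the ER chaperones Hspa5 and Hsp90b1.

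The filters of the study, applied to the values, left 47 cells, 35 LS and 12 NS. These are fewer LS cells than the study kept, and which further cells it used is not given in the sources used here. FPKM (fragments per kilobase of exon and 1000000 reads) divides by gene length, so levels of different genes can be compared only roughly. The length behind the values can exceed that of the longest protein-coding transcript. It was 4156 against 2394 bases for Hspa8 and 8629 against 5622 bases for Dnaja1. The NS libraries were shallower, with 148940 to 885628 reads (median 316530) on the listed genes against 366559 to 2509544 (median 872255) in LS cells. Sensory receptor genes, which cortical cells are not known to use at a high level, reached at least 10% of the level that reads spread evenly over all exons would give in 9 of 12 NS and 4 of 35 LS cells. The summed FPKM of 5 markers of neurons in general was 0 to 1323 (median 690) in LS and 0 to 1182 (median 10.7) in NS cells, and 1 LS and 2 NS cells had none. Excitatory markers exceeded inhibitory ones in 30 LS but only 2 NS cells, and the reverse held in 4 LS and 6 NS cells. The 2 NS cells with more excitatory markers, NS_8 and NS_9, both had receptor genes above 10%. The paper, by mapping to published cells of the visual cortex, placed most of its cells of both groups, at similar shares, in excitatory clusters. A difference in cell type is therefore not established. The groups differed in depth, background and marker balance as well as in their response to light. How much these differences contribute to the values below was not tested. The labels name no mouse, so each group was taken as 1 sample, no test between groups was made, and every SD is the spread between cells. The reads carry no molecular identifiers, so every interval covers counting error only.

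The promoters were searched for exact matches to the elements named above. RefSeq sequences (GRCm38.p6) matched 7 of the 10 genes, and Hspa8, Hsp90ab1 and Hsp90aa1 had no match. The 250 bases before the start are given 5′ to 3′ for the 5 genes on which the comparison of inducible and ER members turns, with capitals marking the motif matches. In Hspa1a, Hspa1b and Hspb1 the match is a pair of heat shock units, GAA and TTC in either order and 2 bases apart, which reads alike on both strands. In Hspa5 and Hsp90b1 it is the ER stress element, CCAAT and CCACG 9 bases apart, on either strand.
Hspa1a, chr17:34972157-34972406, minus strand: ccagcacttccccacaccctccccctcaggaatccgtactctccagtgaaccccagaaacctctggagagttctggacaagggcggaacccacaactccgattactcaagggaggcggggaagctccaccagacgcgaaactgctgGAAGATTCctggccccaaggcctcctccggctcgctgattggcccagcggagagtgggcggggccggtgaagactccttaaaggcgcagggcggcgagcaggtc
Hspa1b, chr17:34959239-34959488, minus strand: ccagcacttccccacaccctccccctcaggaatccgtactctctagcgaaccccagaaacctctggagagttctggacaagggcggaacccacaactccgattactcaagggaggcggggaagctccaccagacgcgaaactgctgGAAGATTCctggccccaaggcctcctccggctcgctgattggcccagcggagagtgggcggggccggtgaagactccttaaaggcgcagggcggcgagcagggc
Hspb1, chr5:135887669-135887918, plus strand: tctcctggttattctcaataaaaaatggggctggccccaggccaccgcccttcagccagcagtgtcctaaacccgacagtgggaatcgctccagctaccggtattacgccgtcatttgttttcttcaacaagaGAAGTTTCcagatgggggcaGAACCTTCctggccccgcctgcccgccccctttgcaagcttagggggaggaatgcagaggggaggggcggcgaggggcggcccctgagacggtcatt
Hspa5, chr2:34771840-34772089, plus strand: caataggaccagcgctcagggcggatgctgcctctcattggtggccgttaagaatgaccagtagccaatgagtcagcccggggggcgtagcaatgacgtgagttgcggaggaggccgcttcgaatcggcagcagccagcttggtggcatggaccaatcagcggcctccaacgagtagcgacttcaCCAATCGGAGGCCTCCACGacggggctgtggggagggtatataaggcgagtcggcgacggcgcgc
Hsp90b1, chr10:86705445-86705694, minus strand: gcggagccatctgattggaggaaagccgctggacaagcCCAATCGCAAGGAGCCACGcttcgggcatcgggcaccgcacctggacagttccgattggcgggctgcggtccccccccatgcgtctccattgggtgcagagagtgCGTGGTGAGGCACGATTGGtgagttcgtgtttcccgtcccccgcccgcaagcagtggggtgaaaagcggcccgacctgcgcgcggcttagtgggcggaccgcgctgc

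The pair of heat shock units began 104 bases before the start in both Hspa1a and Hspa1b, whose windows were identical at 247 of 250 bases. Hspb1 held 2 such pairs, 117 and 97 bases before the start, and the constitutive Dnaja1 held 1 before the first of its 3 starts. The inducible Dnajb1 held no exact pair before either of its 2 starts, and the window of its second start lies downstream of the first start. Only exact matches within 250 bases were searched, so a looser or more distant element would not be seen in any member. Such a pair is common, occurring in 12.8% of the 32851 promoters, while a run of 3 such units, alternating at the same spacing, occurred in 0.466% and in none of the 7 members matched. The ER stress element occurred in 0.113% of promoters, once in Hspa5 (65 bases before the start) and 2 times in Hsp90b1 (212 and 107 bases before it). The 2 motif classes do not overlap in these windows.

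Hspa1a and Hspa1b encode the classical heat-induced Hsp70 and lie side by side on chromosome 17 (chr17:34969190-34972156 and chr17:34956436-34959238, both minus strand). Hspa1a had 0 FPKM in 20 of 35 LS cells, a median of 8.15 FPKM in the 15 cells with a read, and a highest value of 37.4 FPKM, in LS_32. None of the 12 NS cells had a read, which allows a share of up to 26.5% (exact 95% binomial interval), against 42.9% (26.3 to 60.6%) of LS cells. Groups overlapped only at 0, and the summed reads of LS cells, 1056, were at least 43.8-fold higher as a share of all reads than a floor of 3 reads over the NS group. Of 16760 genes with a mean of at least 1 FPKM in LS or NS, 9.16% had no value above 0 in NS cells. With every cell thinned to 200000 reads, Hspa1a stayed at 15 of 35 LS cells and 0 of the 8 NS cells that were deep enough. That count of NS cells allows a share of up to 36.9%, inside the LS interval. Among the NS cells that the filters removed, NS_17 had 2 reads of Hspa1a (0.722 FPKM), so the lack of reads holds for the filtered cells only. Hspa1b was rarer still, with a read in 7 of 35 LS cells, 0.761 to 14.2 FPKM in those cells, and 90 reads in all. In NS cells it had 2 reads, both in NS_15, which gives a log2 ratio of summed reads of 2.48 (95% counting interval 0.59 to 5.55). Without LS_34, which held 42.2% of the LS reads of Hspa1b, the log2 ratio of mean FPKM went from 2.01 to 1.33. Only 3 LS cells had reads of both genes and 19 of 35 had a read of either. Transcript windows of 100 bases were shared with other genes for 48.6% of Hspa1a and 49.9% of Hspa1b, nearly all between these 2 genes, and the sources used here do not give how reads that map to several places were counted, so the split between them is uncertain.

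Dnajb1 (chr8:83608193-83612653), the Hsp40 partner that feeds clients to Hsp70, was 0, 89.1 and 783 FPKM at the lowest, median and highest LS cell, and 0, 0.498 and 354 FPKM in NS cells. Its ranges overlapped, yet 32 of 35 LS cells and 6 of 12 NS cells had a read. The means were 121 ± 138 (SD, n = 35) and 58.2 ± 109 FPKM (SD, n = 12), a log2 ratio of 1.05. The difference stands at the 2-fold line, since leaving out 1 cell gave 0.80 without LS_39 and 1.95 without NS_14, and 11 of the 47 cells, each left out alone, put it below that line. It was 0.55 with cells thinned to 200000 reads and 0.15 in cells with receptor genes under 10%, and in cells with more excitatory than inhibitory markers it turned to −0.22, on 2 NS cells.

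Hspb1 (chr5:135887919-135889563) encodes the small heat shock protein Hsp25, which holds unfolded protein and protects actin filaments. It was 0, 49.7 and 977 FPKM at the lowest, median and highest LS cell, and 0, 0 and 1571 FPKM in NS cells. The groups overlapped over the whole LS range, with a read in 23 of 35 LS cells but only 3 of 12 NS cells, which were NS_8 (106 FPKM), NS_2 (860 FPKM) and NS_9 (1571 FPKM). The mean was therefore lower in LS (132 ± 230 FPKM) than in NS (211 ± 494 FPKM), with a log2 ratio of −0.68, although LS cells had a read more often. NS_9 alone held 80.0% of the NS reads, and without it the log2 ratio was 0.59. As a difference of means of log2(FPKM + 1), which gives single high cells less weight, the value was 2.04. A pseudogene, Hsp25-ps1, shares 42.7% of the Hspb1 windows, so its level carries the same uncertainty as that of Hspa1a.

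**Figure D1:**
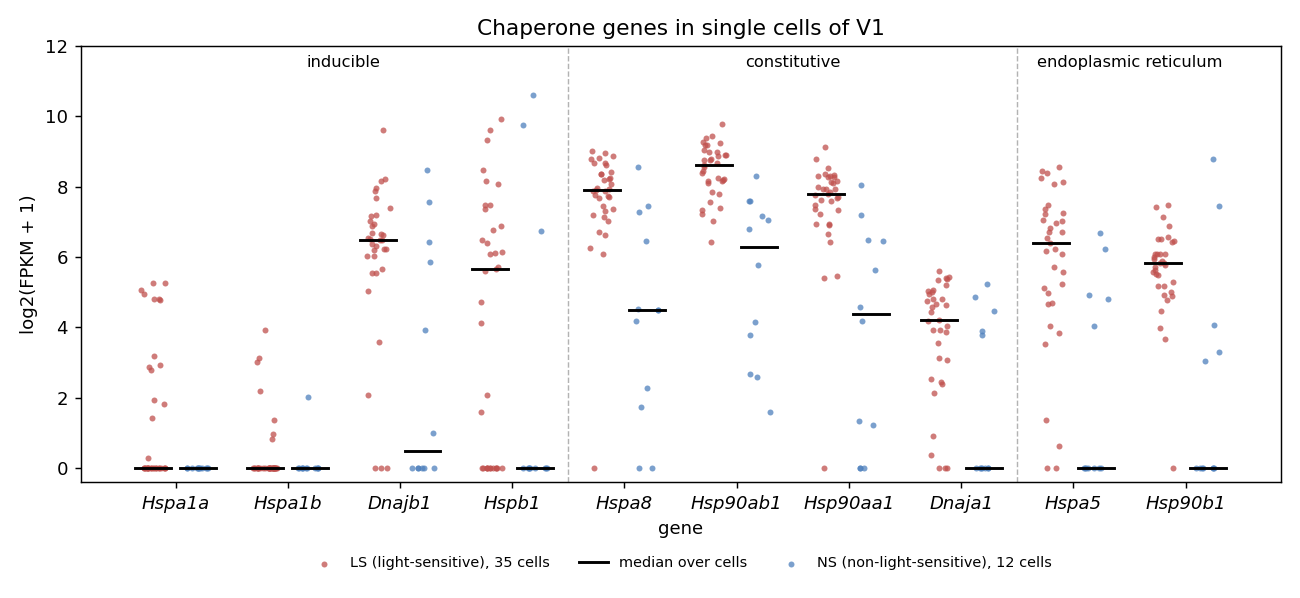
Level of each chaperone gene in each cell, as log2(FPKM + 1), for 35 LS (red) and 12 NS (blue) cells, with the median over cells as a black line. LS medians of the constitutive and ER genes lie above NS medians, Hspa1a is at 0 in every NS cell, and Hspb1 is highest in the NS cell at 1571 FPKM.

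In LS cells Hsp90ab1, Hspa8 and Hsp90aa1 had the highest means of the members and the lowest spread relative to the mean. Hsp90ab1 (chr17:45567775-45573271), the steady cytosolic Hsp90, was the only member with a read in every cell of both groups. It was 84.8, 390 and 879 FPKM at the lowest, median and highest LS cell and 1.996, 81.7 and 314 FPKM in NS cells, so that no NS cell exceeded the LS median and 21 of 35 LS cells exceeded every NS cell. The means were 394 ± 182 (SD, n = 35) and 98.2 ± 100 FPKM (SD, n = 12), a log2 ratio of 2.003 that ran from 1.88 to 2.32 with each cell left out in turn.

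Hspa8 (chr9:40800984-40810087) encodes the constitutive Hsp70, which also strips clathrin from synaptic vesicles. It was 0, 239 and 519 FPKM at the lowest, median and highest LS cell and 0, 21.6 and 376 FPKM in NS cells. A single NS cell, NS_4, lay above the LS median, and the log2 ratio of means, 1.81, was 2.49 without it. Hspa8 shares 62.8% of its windows with 7 other genes, most of all with the pseudogene Gm15459.

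Hsp90aa1 (chr12:110690605-110702728), the stress-responsive form of cytosolic Hsp90, was 0, 219 and 556 FPKM at the lowest, median and highest LS cell and 0, 19.98 and 265 FPKM in NS cells. Again only NS_4 exceeded the LS median, the log2 ratio of means was 1.98, and it was 2.57 without NS_4. Windows shared with other genes, 3 in number, made up 47.5% of its transcript.

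Dnaja1 (chr4:40722150-40737149), an Hsp40 co-chaperone of Hspa8, was the scarcest constitutive member, at 0, 17.5 and 47.8 FPKM at the lowest, median and highest LS cell and 0, 0 and 36.6 FPKM in NS cells. It had a read in 32 of 35 LS and 5 of 12 NS cells, and the ranges overlapped. The log2 ratio of means was 1.06, at the 2-fold line like that of Dnajb1, and it was 0.93 without any 1 of the 7 NS cells in which the gene had no read, 0.99 without LS_24 and 1.501 without NS_9. In excitatory-marked cells it turned to −0.38, on 2 NS cells.

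Hspa5 (chr2:34771970-34777547) encodes BiP, the Hsp70 of the ER and a target of its unfolded protein response. It was 0, 83.5 and 378 FPKM at the lowest, median and highest LS cell and 0, 0 and 102 FPKM in NS cells, and 16 of 35 LS cells exceeded every NS cell. Its log2 ratio of means, 2.44, was the highest of the members with a read in NS cells, and it was 3.08 without NS_14. Hsp90b1 (chr10:86690209-86705509), the Hsp90 of the ER, was 0, 55.8 and 177 FPKM at the lowest, median and highest LS cell and 0, 0 and 444 FPKM in NS cells. It had a read in 34 of 35 LS but 5 of 12 NS cells, and the 62.1 ± 40.5 (SD, n = 35) and 54.3 ± 133 FPKM (SD, n = 12) of the means gave a log2 ratio of only 0.19. NS_12 held 83.0% of the NS reads of Hsp90b1, and without this cell the ratio was 1.72. The direction was not stable, at −0.71 for summed reads, −0.35 thinned, −0.14 over all 63 cells and −0.11 with receptor genes under 10%. Both ER genes thus had a read in nearly every LS cell and in 5 of 12 NS cells.

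Of the 10 genes, 9 had a higher mean in LS than in NS cells, against 47.1% of the 16760 genes, and 8 were at least 2-fold higher, against 33.8%. None was at least 2-fold lower, which held for 38.9% of the genes. The median log2 ratio over all these genes was −0.20, with quartiles at −2.35 and 1.86, so differences of the members' size were frequent and most members lay above the median of a wide spread. Counted over summed reads or with every cell thinned to 200000 reads, 7 genes were at least 2-fold higher. In the 31 LS and 3 NS cells with receptor genes under 10%, 8 genes were at least 2-fold higher, but not the same 8. Dnajb1 dropped out, at a log2 ratio of 0.15, and Hspb1 came in. Hspa1a, Hspa1b and Hspb1 were counted there without a ratio, since NS_13, NS_14 and NS_16, the 3 NS cells, had no read of them.

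**Figure D2:**
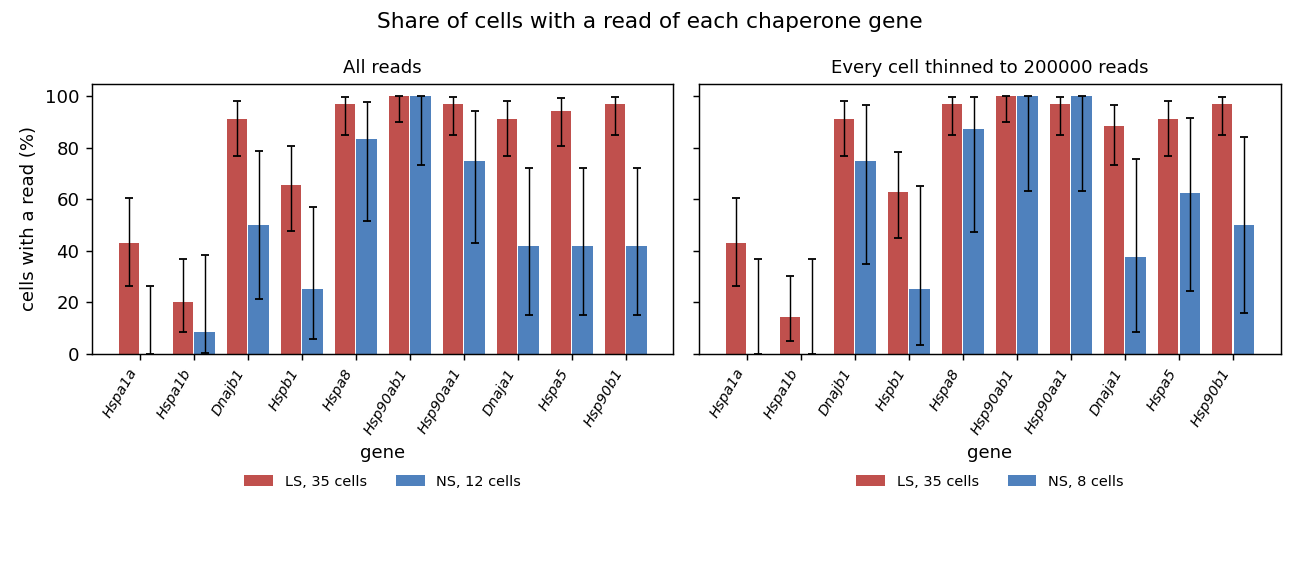
Share of cells with a read of each gene in LS (red) and NS (blue) cells, in percent, with all reads (left) and with every cell thinned to 200000 reads (right), with exact 95% binomial intervals as bars. Hspa1a was read in 15 of 35 LS and 0 NS cells in both panels, and Hsp90ab1 was read in every cell.

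Within LS cells the levels ordered as Hsp90ab1, Hspa8, Hsp90aa1, Hspb1, Dnajb1, Hspa5, Hsp90b1, Dnaja1, Hspa1a and Hspa1b, from a mean of 394 FPKM down to 1.03 FPKM. Their order also depends on the gene lengths used and on how reads from shared windows were counted, which is not given. Each gap between neighbours in this order was smaller than the SD of the difference over cells, although Hsp90b1 was above Dnaja1 in 29 of 35 cells with a gap of 42.7 FPKM against an SD of 42.8 FPKM. The middle of the order was not resolved, since Hspb1 was above Dnajb1 in 13 cells and Dnajb1 above Hspa5 in 17 cells. The coefficient of variation, the SD divided by the mean, was 0.464 for Hsp90ab1, 0.508 for Hsp90aa1 and 0.510 for Hspa8, but 1.15 for Dnajb1, 1.73 for Hspa1a, 1.74 for Hspb1 and 2.86 for Hspa1b. All 4 constitutive genes were read in 31 of 35 LS cells, and all 4 inducible genes in 3.

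Summed by class, the inducible genes were 0, 172 and 1293 FPKM at the lowest, median and highest LS cell and 0, 8.70 and 1628 FPKM in NS cells. Their means, 261 ± 269 (SD, n = 35) and 270 ± 499 FPKM (SD, n = 12), were nearly equal at a log2 ratio of −0.05, which became 0.83 without NS_9 and 0.27 without NS_2, the 2 cells with the most Hspb1 in their group. With Hsp90aa1 and Dnaja1 counted as inducible, the log2 ratio of the inducible sum was 0.59. The constitutive sum averaged 895 ± 307 FPKM over LS cells against 238 ± 263 FPKM over NS cells (log2 ratio 1.91). The ER sum averaged 174 ± 120 against 75.05 ± 150 FPKM (log2 ratio 1.22, or 2.33 without NS_12). The inducible sum exceeded the constitutive one in 3 of 35 LS and 5 of 12 NS cells. The inducible share of the 10 genes had a median of 16.8% in LS and 2.72% in NS cells, while its mean ran the other way, at 18.3 ± 14.7% and 33.5 ± 42.3%. It spread from 0 to 57.6% and from 0 to 96.5%.

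Fos itself was 0, 152 and 12613 FPKM at the lowest, median and highest LS cell and 0, 39.8 and 503 FPKM in NS cells, with a read in 30 of 35 and 8 of 12 cells. The members did not move together with it. Over the 35 LS cells, which were treated as points of 1 group that share library chemistry and differ in depth, the Spearman correlation with Fos was 0.64 for Hspb1, 0.31 for Hspa5, 0.27 for Hspa1a and 0.23 for Hspa1b. It lay between −0.06 and 0.07 for Dnajb1, Hspa8, Dnaja1 and Hsp90ab1, and it was −0.27 for Hsp90b1 and −0.69 for Hsp90aa1. Among the 6121 genes that at least 50% of LS cells had reads of, 1.67% reached a correlation of 0.5 or more and 2.24% one of −0.5 or less, with a median of −0.06. Of the 8 members in that set, Hspb1 passed the upper and Hsp90aa1 the lower line, with 22 genes above the first and 6 genes below the second. Hspa1a and Hspa1b were read in too few cells to enter it. The inducible sum had a correlation of 0.63 and the constitutive sum one of −0.27, and neither value is shared evenly by the genes of its class, since Dnajb1 was at 0.07 and Hspa8 at 0.05. The contrast depends on the classes. With Hsp90aa1 and Dnaja1 counted as inducible, the 2 sums were at 0.27 and −0.041.

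**Figure D3:**
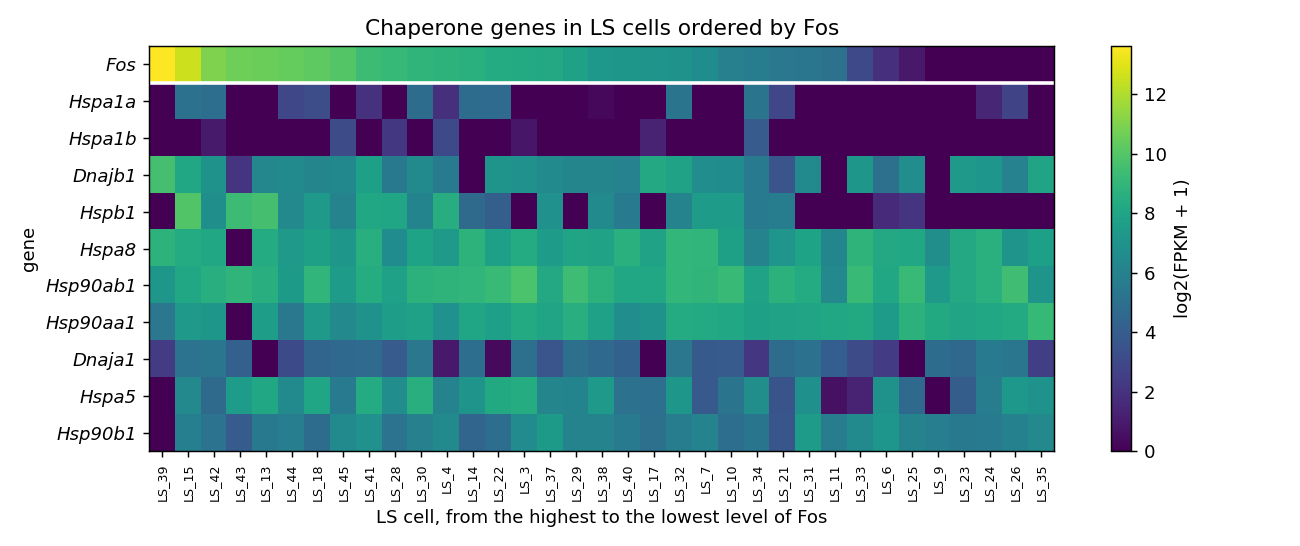
Levels of Fos and the 10 chaperone genes in the 35 LS cells, one column per cell from the highest to the lowest Fos, with colour as log2(FPKM + 1). Hspb1 is at 0 in the 5 cells without a Fos read and in 7 cells with one, among them LS_39, the cell with the most Fos (12613 FPKM). Hsp90aa1 is highest in LS_35, a cell at 0 FPKM of Fos.

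Among LS cells Hspb1 was read only where Fos was read too, but Fos was read in 30 of 35 cells. All 23 LS cells with an Hspb1 read also had a Fos read, 7 cells had Fos alone, and 5 had neither. The same held for all 7 cells with an Hspa1b read. LS_6 and LS_25 had only 1 and 3 reads of Hspb1, at 2.70 and 0.935 FPKM of Fos. The cell with the most Hspb1, LS_15 (977 FPKM), was the second in Fos (6175 FPKM), whereas LS_39, the first in Fos, had no Hspb1 read. The correlation was 0.72 without these 2 cells, which lie farthest from the median of Fos, and 0.62 to 0.75 with each cell left out in turn. Ranks adjusted for the number of genes detected left it at 0.64, and reads per cell had a correlation of 0.07 with Hspb1. In the 12 NS cells the value was −0.04, on 3 cells with an Hspb1 read.

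Markers of some other cells moved with both genes, most of all those of fibroblasts and, nearly all through Vtn, the sum of mural cell markers. Other non-neuronal lists were weaker. Against Hspb1 and Fos, endothelium markers were at 0.40 and 0.28, astrocyte markers at 0.30 and 0.37 and microglia markers at 0.23 and 0.46. Blood markers were at 0.09 and 0.32 and oligodendrocyte markers at −0.08 and −0.02. The summed FPKM of 9 leptomeningeal fibroblast markers, a list added after the values were seen, had a correlation of 0.60 with Hspb1 and 0.63 with Fos. It was 0 to 3340 FPKM (median 138) in LS and 0 to 569 FPKM (median 43.1) in NS cells, with a value in 33 of 35 LS cells, and the defining genes Dcn and Col1a2 were read in 22 and 24 LS cells. Of the 9 markers 7 were at least 2-fold higher in LS and none was 2-fold lower (33.8% and 38.9% over all genes). The sum of 5 mural cell markers (0 to 1491 FPKM in LS and 0 to 471 FPKM in NS cells) had correlations of 0.53 with Hspb1 and 0.63 with Fos. Nearly all of this came from Vtn (0.55 and 0.61). Pdgfrb, read in 10 LS cells, was at 0.06 and 0.13. Kcnj8 was at 0 in all cells, and Rgs5 and Acta2 were read in 1 and 3 LS cells. The markers of neurons in general went the other way, with −0.63 for Hspb1 and −0.65 for Fos. Adjusting the ranks for the fibroblast sum gave 0.43 for Hspb1 against Fos, and adjusting them for the neuron sum gave 0.39. The mitochondrial share of reads, often raised in damaged cells, had a correlation of 0.53 with Hspb1 and 0.18 with Fos, and its range was 0.847 to 11.6% in LS cells.

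**Figure D4:**
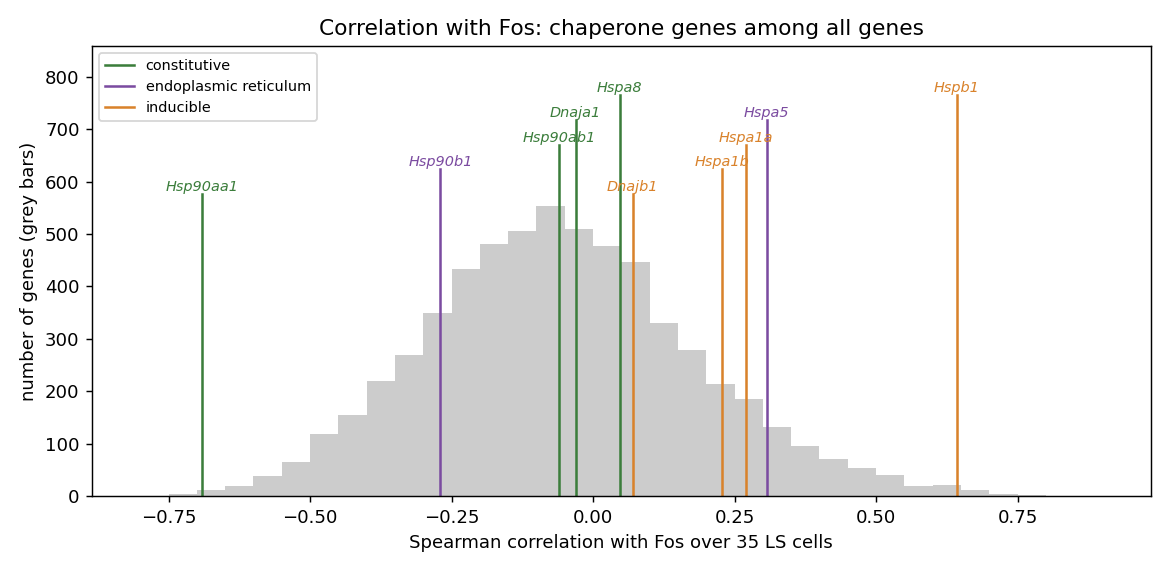
Distribution of the Spearman correlation with Fos over 35 LS cells for 6121 genes (grey bars, number of genes) and the value of each chaperone gene as a coloured line by class. Hspb1 (0.64) and Hsp90aa1 (−0.69) lie in the tails, and the other members lie between −0.27 and 0.31.

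Hsp90aa1 was lower where Fos was higher. It was 41.2 FPKM in LS_39, 163 FPKM in LS_15 and 148 FPKM in LS_42, the 3 cells with the most Fos, and 243 to 556 FPKM in the 5 cells at 0 FPKM of Fos. The correlation was −0.66 without the 2 cells farthest in Fos and −0.72 to −0.66 with each cell left out in turn. As Pearson's r of log2(FPKM + 1) it was −0.48, with a pseudocount of 0.1 it was −0.38, and with LS and NS cells together the Spearman value was −0.20, all short of −0.5. The other cytosolic Hsp90 gene, Hsp90ab1, had a correlation of −0.06 with Fos over the same cells, although both Hsp90 genes were correlated with each other at 0.40. Hsp90aa1 had correlations of 0.64 with the neuron markers and −0.52 with the fibroblast sum. The adjusted values against Fos were −0.47 with the neuron markers and −0.55 with the fibroblast markers.

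In NS cells the sign of Hsp90aa1 was the opposite, at 0.81 over 12 cells, and Hspa5, Hsp90ab1, Hspa8 and Hsp90b1 were at 0.79, 0.67, 0.59 and 0.56. There the reads per cell had a correlation of 0.85 with Fos and 0.82 with Hsp90aa1, and the receptor-gene index had −0.66 and −0.69, so that the genes, Fos and library quality moved together. Among LS cells the reads per cell had a correlation of 0.12 with Fos and 0.06 with Hsp90aa1. The difference between the groups in this correlation was not tested.

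**Figure D5:**
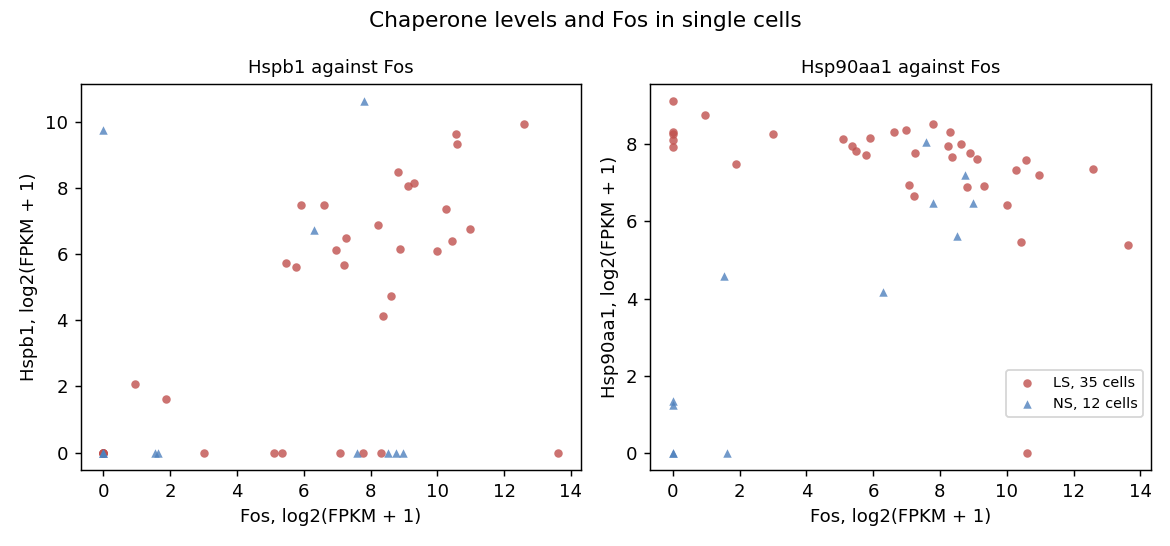
Hspb1 (left) and Hsp90aa1 (right) against Fos in each cell, all as log2(FPKM + 1), for 35 LS cells (red circles) and 12 NS cells (blue triangles). Among LS cells Hspb1 goes up with Fos (Spearman 0.64) and Hsp90aa1 goes down (−0.69), while NS cells rise in Hsp90aa1 with Fos (0.81).

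Hspb1 and Hsp90aa1, singled out by their correlation with Fos, had the medians of largest size against the immediate-early genes. These are 22 transcription factors and regulators that are induced within minutes of a stimulus. The list holds Fos, and its sum had a correlation of 0.90 with Fos over LS cells. The values below are therefore not independent of those against Fos. Hspb1 had a positive correlation with 18 of them, with a median of 0.37 and the highest value, 0.70, for Fosb, and it had 0.63 with Ier2, 0.61 with Zfp36, 0.56 with Atf3 and 0.55 with Dusp1. The 4 genes with a negative value for Hspb1 were Npas4 (−0.16), Egr4 (−0.16), Arc (−0.10) and Egr3 (−0.02). Their own correlations with Fos were 0.02, −0.13, 0.06 and −0.02, and Npas4 and Arc were read in 8 and 11 LS cells. Positive signs alone were as frequent for other members, with 20 for Hspa5, 19 for Hspa1a and 18 for Dnajb1. Hsp90aa1 had a negative correlation with 17 of the 22, with a median of −0.38 and a highest value of 0.17 for Npas4. The medians for the other members lay between −0.07 (Hsp90b1) and 0.22 (Hspa5), where the highest single value was 0.59, for Hspa5 and Atf3. Of the list itself, 12 of 22 genes were at least 2-fold higher in LS and none was 2-fold lower (33.8% and 38.9% over all genes), among them Fos (916 ± 2318 FPKM in LS and 149 ± 190 in NS cells), Egr1 (758 and 327 FPKM), Nr4a1 (605 and 102 FPKM), Zfp36 (374 and 151 FPKM) and Junb (258 and 84.4 FPKM).

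The wider chaperone network resembled the constitutive members in its direction. Of 38 co-chaperones and other heat shock genes above the level filter, 26 were at least 2-fold higher in LS and 1 was 2-fold lower (33.8% and 38.9% over all genes), with a median log2 ratio of 1.91. The highest in LS was Bag1, a nucleotide exchange factor of Hsp70, at 148 ± 172 FPKM in 32 of 35 LS cells against 0.371 FPKM in NS cells, where it had 3 reads in 1 cell. Cct5, a subunit of the chaperonin that folds actin and tubulin, was similar at 95.4 ± 82.3 and 0.634 FPKM, with 4 reads in 1 NS cell. Small heat shock genes were mixed, as Hspb8 was higher in LS (98.8 and 5.66 FPKM), Cryab was lower (106 and 159 FPKM) and Hspb6 was the member 2-fold lower (2.29 and 21.4 FPKM, read in 3 NS cells). Dnaja2, the relative of Dnaja1, was at 62.1 and 31.7 FPKM. Against Fos, Dnajc3, an ER co-chaperone named after its value was seen, had the highest correlation of the list over LS cells, 0.59, and the only one above 0.5. The correlations of Bag1, Hspb8 and Cryab were 0.48, 0.45 and 0.44, and those of Cct5 and Dnaja2 were −0.12 and −0.26.

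Of 22 genes of the ER stress response 14 were at least 2-fold higher in LS and 2 were 2-fold lower (33.8% and 38.9% over all genes), with a median log2 ratio of 1.74. Xbp1 and Atf4, transcription factors of that response, were at 112 and 88.6 FPKM in LS against 11.7 and 15.6 FPKM in NS cells, and the ER chaperone Calr was at 87.4 and 29.1 FPKM. Ppp1r15a, which restores translation after stress, was at 72.4 and 19.6 FPKM, and Dnajb9, a co-chaperone of BiP, at 57.0 FPKM against 0.369 FPKM, with 4 reads in NS cells. Trib3, a target of the late phase, had the lowest ratio (5.29 and 42.2 FPKM, read in 5 LS and 2 NS cells). Among the heat shock factors, Hsf1 averaged 6.50 ± 16.7 FPKM over LS cells against 33.2 ± 74.5 FPKM over NS cells, of which 3 had a read, and Hsf2 was read in 21 of 35 LS and 0 of 12 NS cells. Hsf4 and Hsf5 differed by less than 2-fold. Many single genes of these lists were read in few NS cells.

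The members had little in common across LS cells. Of the 45 pairs of members only 1 reached a Spearman correlation of 0.5, Dnajb1 with Hspa8 at 0.55, and the median was 0.06. Hspa1a and Hspa1b, with almost the same promoter, were at 0.06. Only 3 LS cells had reads of both, and the split of reads between these 2 genes is uncertain. Hspb1 with Dnajb1, both inducible, was at −0.14. The lowest value was −0.44, for Hspb1 with Hsp90aa1. The 2 ER genes, which share the ER stress element, were at 0.12.

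Genes most like Hspa1b over the 35 LS cells, among 6122 with a read in at least 50% of them, were Nvl (0.58), Wee1, Iqgap1, D230025D16Rik and Cep170, on 7 cells with an Hspa1b read. Those most like Hspa8 were Rab5a (0.65), Ccdc107, Slc35a4, Aldoa and Cyc1 (0.59). For the pair that stood apart against Fos the genes were looked up after their values were seen. Serping1 (0.84), Cyr61 (0.75), Ahnak (0.72), Anxa1 (0.71) and Fosb (0.70) were most like Hspb1, and Serping1 itself had a correlation of 0.67 with Fos. Olfm1 (0.79), Otub1 (0.69), Syp (0.69), Ift46 (0.66) and Hpca (0.65) were most like Hsp90aa1, and Syp encodes the synaptic vesicle protein synaptophysin.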

How the data were processed

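The authors aligned paired-end reads to GRCm38 with STAR 2.5.3a, counted them with featureCounts and deposited FPKM of 63 cells for 20183 protein-coding genes; how multi-mapped reads were counted is not given in the sources used here. The 4 rows with a repeated name were left out. Whole reads were recovered from the FPKM steps with GENCODE M21 exon lengths (99.5% of values solved, 99.999% of low values whole within 0.01 reads) and were not scaled. They averaged 847286 per cell on the listed genes. The totals behind the FPKM averaged 1000000 per cell and give relative depth only. The recovery, the ratios and the correlations were tested on simulated data.

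The study's filters kept cells with at least 1000 genes above 1 FPKM, at most 25% mitochondrial reads, and no co-expressed glial or mixed markers; the 2 cells of low cDNA were removed by name. A group was described by its mean FPKM, with no pseudocount. Genes with a mean of at least 1 FPKM in LS or NS served as background, and a 2-fold difference was counted. Correlations are Spearman's. Shares have exact binomial and summed reads exact conditional 95% intervals, covering counting error only. Cells were thinned to 200000 reads with the seed 11. The alternatives were other filters, summaries, scales, cells and class definitions, and each cell left out in turn. The markers of fibroblasts, the adjustments for markers and the 2 settings on NS and on low receptor genes were added after the values were seen. Members and lists were chosen with earlier results of these data known. Named genes were the 10 members, Fos and immediate-early genes, the 5 highest in LS and the extremes of each list, markers that moved with a member, and the 5 genes most like Hspa1b and Hspa8. The scripts ran under Python 3.11.15 with scipy 1.17.1, pandas 2.3.3 and numpy 2.4.6.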

Additional observations from a re-analysis of the deposited data

How the results depend on the processing

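No paired analysis was possible because the replicate numbers only count the cells of a group and no result comes from a test. Hspa1a, at 0 in every NS cell left by the filters, was given no ratio, and genes with an NS median of 0 had no ratio of medians. Across 10 other settings the genes higher in LS numbered 7 to 10 and those at least 2-fold higher 7 to 9, and with each cell left out 9 to 10 and 6 to 8. At the depth of the NS cells, the lack of a read does not show that a gene is absent.

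The constitutive log2 ratio (1.91) was 1.41 over all cells, 1.67 for summed reads, 1.42 thinned, 1.72 with receptor genes under 10%, 2.80 and 2.83 for means of log2 with a pseudocount of 1 and 0.1, and 2.98 averaged over genes on that scale. The ER ratio (1.22) was 0.96, 0.48, 0.67, 0.70, 3.52, 4.83 and 3.45 in that order, 2.95 for medians and 2.505 in excitatory-marked cells. The inducible ratio (−0.05) had no stable sign, at 4.31 for medians, 2.99 and 4.01 for means of log2, 1.75 averaged over genes, 1.22 with receptor genes under 10% and −2.18 in excitatory-marked cells. With each cell left out these 3 ratios ran from 1.79 to 2.38, 1.09 to 2.33 and −0.23 to 0.83. Among single genes Dnajb1 and Dnaja1 turned to −0.22 and −0.38 in excitatory-marked cells, Hsp90b1 (0.19) was below 0 in 4 settings (−0.71 to −0.11) and at 3.92 in excitatory-marked cells, and Hspb1 (−0.68) was at 2.04 and 3.35 for means of log2. The cause of these moves was not tested.

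The correlation of the inducible sum with Fos (0.63) was 0.49 over all cells, 0.49 with NS cells included, 0.54 in excitatory-marked cells, 0.56 with receptor genes under 10%, 0.52 and 0.44 as Pearson's on log2 with a pseudocount of 1 and 0.1, 0.58 against the mean of the immediate-early genes, 0.27 with Hsp90aa1 and Dnaja1 counted as inducible, 0.42 and 0.45 adjusted for fibroblast and neuron markers, 0.56 without the 2 cells farthest in Fos and 0.031 in NS cells. That of the constitutive sum (−0.27) was −0.35 with receptor genes under 10%, 0.076 with NS cells included, −0.18 against the immediate-early genes, −0.041 without Hsp90aa1 and Dnaja1, −0.057 and 0.068 adjusted for fibroblast and neuron markers and 0.82 in NS cells. With each cell left out they ran from 0.60 to 0.68 and −0.33 to −0.22. Hsp90aa1 (−0.69) was −0.48 and −0.38 as Pearson's and −0.20 with NS cells included. In NS cells Hspb1 turned to −0.037 and Hsp90aa1 to 0.81. The settings on NS cells, receptor genes for Fos, marker adjustments and the 2 cells were added after the data were seen.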
